A study of Homo sapiens with 20 samples.

Results

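The comparison between 72 h and 48 h of EGF-treatment was examined in MDA-MB-468 cells, a human triple negative, basal-like breast cancer cell line that carries a very high level of the EGF receptor. It comprised 8 of the 20 libraries of the series, namely the 4 labelled EGF 72 h and the 4 labelled EGF 48 h, which were taken from the labels and not from any measured value. Cells were moved to serum-free medium and then received EGF at 50 ng/mL for 12, 24, 48 or 72 h. Others were left as untreated control, with 4 biological replicates in each group. By the treatment protocol in the sample labels, all groups were seeded and harvested together. On that protocol the 48 h and 72 h cells had the same time in culture and differed in when EGF was added. If serum was withdrawn at the same time in all groups, they also differed in how long they stayed without serum or EGF before it. The paper describes serum withdrawal 24 h after seeding and EGF 24 h later. Both cannot hold for every group with a common seeding and harvest, and the time of serum withdrawal in each group is not known here. The cells were a single line that was not authenticated after delivery, and the 12 h, 24 h and control libraries were used here to place each gene before 48 h.

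EGF binds its receptor and starts the MAP kinase pathway, which switches on immediate early transcription factors within minutes. These are followed by delayed genes, among them phosphatases and Sprouty proteins that dampen the pathway and further ligands of the same receptor that feed it. MDA-MB-468 cells are known for slowing their division and for changing shape towards a mesenchymal form when EGF is high.

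Estimated counts summed to between 16527104 and 24098943 per library at 48 h and between 15611961 and 25856953 at 72 h. In all, 16522 of 60271 genes in the table passed the filter on low counts. Mitochondrially encoded genes took 9.83 to 16.9% of the counts at 48 h and 12.3 to 16.4% at 72 h. The library EGF 48 h replicate 2, which had the 16.9%, stood furthest from its group, with a chi-square per degree of freedom of 15.5 to 51.7 against the other 48 h libraries where all other pairs within the 2 groups gave 3.36 to 15.3. Of 10 markers of the line, 9 had at least 100 counts in all 8 libraries and SOX10 had none. Of 14 markers of blood, endothelial and fibroblast cells, 3, among them HBB and CDH5, were at 0 in all 8 libraries and the summed level of the list was 10.6 to 13.4 CPM at 48 h and 9.21 to 10.5 CPM at 72 h. Most of this sum came from CD14, with 72 to 137 counts per library, and PECAM1, with 52 to 114, while LYZ had 15 to 28. CPM values here are counts scaled to a common library size after TMM normalization. The receptor gene EGFR itself, which is amplified in this line, had 5202, 5733, 6141 and 5352 CPM at 48 h and 6012, 5712, 6125 and 5619 CPM at 72 h. These values overlapped, and the log2 fold change was 0.07 (SE 0.066, edgeR adjusted p = 0.476), or -0.02 when libraries were scaled by their size alone.

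Between 48 h and 72 h, 2951 genes were upregulated and 2955 were downregulated at an edgeR adjusted p below 0.05, in each case 17.9% of the genes tested. Of these, 1283 rose more than 1.5-fold, 7.77% of the genes tested, and 1158 fell more than 1.5-fold, 7.01%. The split between directions depended on the scaling: with library size alone, 2132 genes were called higher and 4175 lower. In 1211 of the 1283 risers the 4 libraries at 72 h all lay above the 4 at 48 h, where 17.7% of all genes tested did so. In 1023 of the 1158 fallers all 4 lay below, against 17.3% of all genes. The median log2 fold change over all genes was -0.01. The counts given for gene lists are to be read against the 17.9% of all genes called in each direction, and each list's share is given beside its count.

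Most of the genes that moved had moved before. Of the 1283 risers, 999 (77.9%) had been more than 1.5-fold above control at 12 h or 24 h, a state called in 25.5% of all genes tested. Of the 1158 fallers, 1006 (86.9%) had been more than 1.5-fold below control at 12 h or 24 h, against 29.7% of all genes. Read the other way, the 999 were 23.7% of the 4215 genes high early and the 1006 were 20.5% of the 4915 genes low early. The 48 h and 72 h libraries share no sample with the control, 12 h or 24 h libraries, and across the 16522 genes the change at 24 h against control and the change from 48 h to 72 h had a Pearson r of 0.601, given as a description because genes are not independent replicates.

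**Figure D1:**
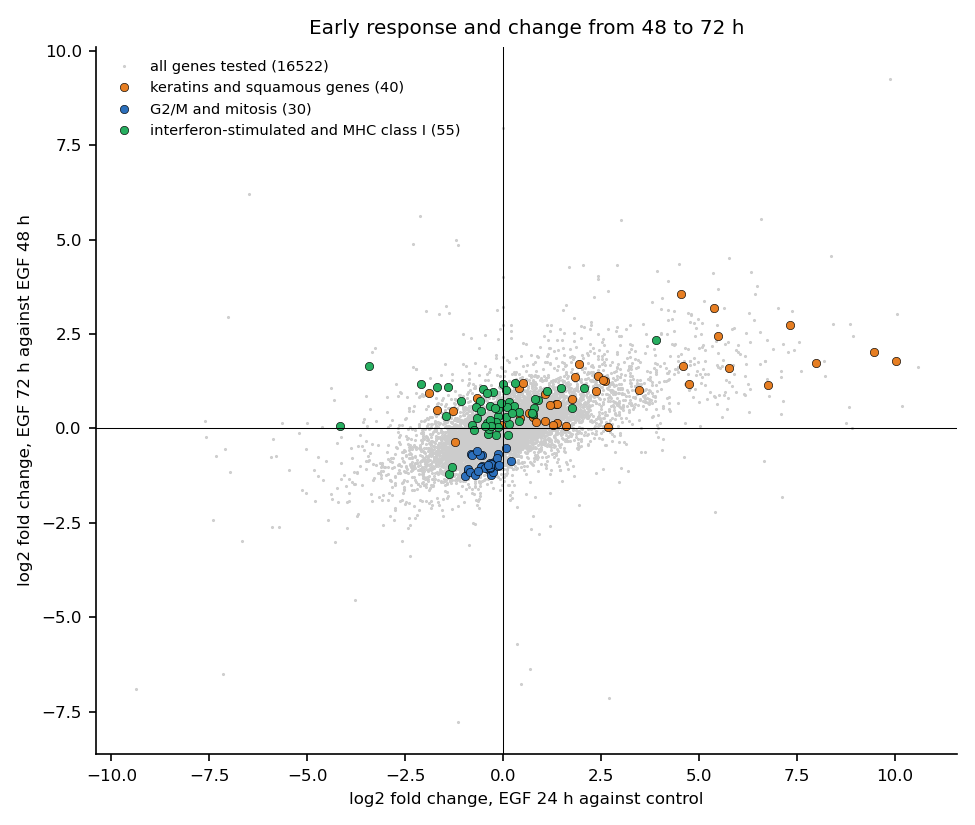
Each grey point is 1 of the 16522 genes tested, with the log2 fold change of EGF 24 h against control on the x axis and that of EGF 72 h against EGF 48 h on the y axis, and coloured points are members of gene lists. Keratin and squamous genes lie mostly to the upper right, all 30 mitotic genes lie below 0 on the y axis, and interferon-stimulated and MHC class I genes are spread around 0 on the x axis and mostly above 0 on the y axis.

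The early high genes did not all follow 1 course. In 814 of the 999 the mean at 48 h was below the higher of the 12 h and 24 h means, so these had subsided and came back, whereas in 185 the 48 h mean was already above both and the genes climbed on. At 72 h, 567 of the 999 stood above both early means and 192 stood below both. For the fallers the mirror image held: in 998 of the 1006 genes low early the 48 h mean was above the lower of the early means, and the 72 h mean still lay above both early means in 480 of them and lay below both in 222. A further 198 risers had been within the limits at both early times and so started late, and 86 had been below control early and not above it. Among the fallers, 131 had been within the limits at both early times and 21 had been high early. Because these courses use the same 48 h and 72 h libraries that chose the genes, they carry no test of their own.

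**Figure D2:**
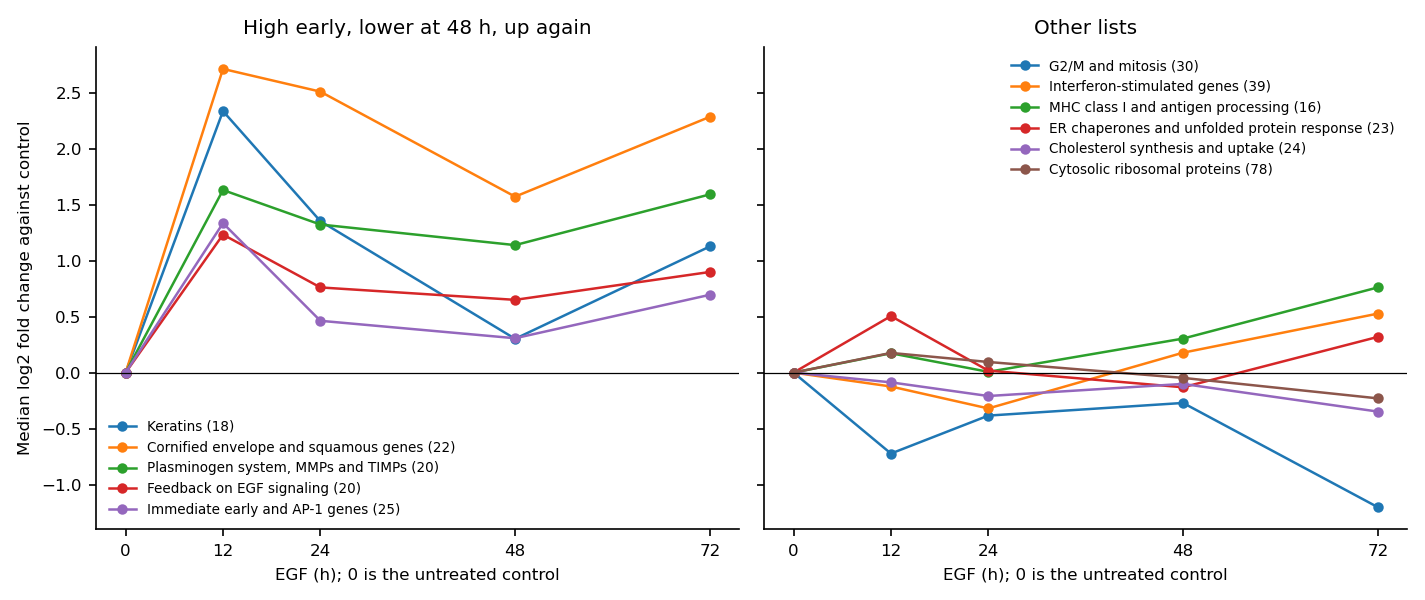
Each line follows the median log2 fold change against control of 1 gene list, with the number of members measured in brackets and the hours of EGF-treatment on the x axis. In the left panel the lists peak at 12 h, are lower at 48 h and higher at 72 h; in the right panel the interferon-stimulated and MHC class I lists are highest at 72 h and the mitotic list is lowest at 72 h.

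The ligands of the EGF receptor were among the genes that came back. Of 11 measured receptors and ligands of the family, 5 were called higher (45.5%) and 2 lower (18.2%). Amphiregulin (AREG; GRCh38 chromosome 4, 74445134 to 74455009, plus strand, in the GENCODE 29 annotation), a membrane-anchored ligand that is shed to reach neighbouring cells, had 16.5, 12, 19 and 17.6 CPM at 48 h and 115, 94.4, 72.8 and 72.7 CPM at 72 h (log2 fold change 2.45, SE 0.197, edgeR adjusted p = 1.83e-08). All 4 libraries at 72 h exceeded all 4 at 48 h, and the mean of 88.8 CPM was near the 83.6 CPM at 12 h, from 1.79 CPM in control. HBEGF, a heparin-binding ligand of the same receptor, went from 5.82, 4.65, 7.41 and 6.53 CPM to 23.4, 17.8, 17.4 and 16.3 CPM (log2 fold change 1.62, SE 0.169, edgeR adjusted p = 9.39e-08), also without overlap. Epigen (EPGN) and epiregulin (EREG), which lie beside AREG on chromosome 4, rose by 1.92 and 1.18 on the log2 scale (SE 0.161 and 0.171, edgeR adjusted p = 2.51e-09 and 8.71e-06), and their 72 h means of 28.4 and 9.64 CPM were above those at 12 h and 24 h. TGFA, the ligand TGF-alpha, rose by 0.81 (SE 0.1, edgeR adjusted p = 9.17e-07). The other 2 family members that changed were receptors and fell: ERBB2, the partner receptor that has no ligand of its own, had 19.4, 21.4, 15.3 and 16.7 CPM at 48 h and 9.48, 9.33, 12.3 and 13.1 CPM at 72 h (log2 fold change -0.72, SE 0.153, edgeR adjusted p = 0.000676). ERBB3 had a log2 fold change of -0.26 (SE 0.0648, edgeR adjusted p = 0.0028), which was not called when scaling used factors set per gene and library, taken from the ratio of the deposited counts to the normalized values.

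Of 20 measured negative feedback genes of the pathway, 11 were called higher (55%) and 1 lower (5%), with a list median of 0.41 on the log2 scale. The phosphatase DUSP6, which removes the activating phosphates from ERK in the cytoplasm, had 13.9, 11.7, 15.8 and 13.2 CPM at 48 h and 41.7, 36.7, 32 and 32.6 CPM at 72 h (log2 fold change 1.39, SE 0.116, edgeR adjusted p = 2.36e-09). DUSP5, its nuclear counterpart, rose by 1.51 (SE 0.153, edgeR adjusted p = 1.31e-07) and SPRY4, a Sprouty inhibitor acting upstream of Ras, by 1.39 (SE 0.136, edgeR adjusted p = 3.6e-08) on the log2 scale. For both genes the 72 h libraries all lay above the 48 h libraries. LRIG1, which promotes degradation of the receptor, was the one that fell, from a mean of 15.4 to 10.3 CPM (log2 fold change -0.58, SE 0.098, edgeR adjusted p = 5.89e-05).

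Of 25 measured immediate early and AP-1 genes, 13 were called higher (52%) and none lower. FOSL1 (chromosome 11, 65892049 to 65900573, minus strand), which encodes the AP-1 subunit Fra-1, had 27.5, 25, 26.8 and 23.2 CPM at 48 h and 119, 83.6, 82.9 and 88.3 CPM at 72 h (log2 fold change 1.87, SE 0.196, edgeR adjusted p = 6.93e-07). The 72 h libraries were far above the 48 h ones, and the 72 h mean was close to that at 24 h (82.1 CPM) but below that at 12 h (248 CPM). FOSB, another AP-1 subunit, had 2.83, 2.3, 1.71 and 1.95 CPM at 48 h and 11.4, 8.42, 9.1 and 8.24 CPM at 72 h (log2 fold change 2.10, SE 0.191, edgeR adjusted p = 9.22e-09) and exceeded its 12 h mean of 4.43 CPM. IER3, an early response gene that modulates survival, rose by 1.33 (SE 0.145, edgeR adjusted p = 5.08e-07). Among 11 ETS factors and related MAP kinase outputs, 6 were called higher (54.5%) and none lower. PHLDA1, a pleckstrin-homology protein and widely used readout of MAP kinase activity, had a mean of 213 CPM at 48 h and 601 CPM at 72 h (log2 fold change 1.49, SE 0.203, edgeR adjusted p = 2e-05). ELK3, an ETS factor, rose by 1.02 (SE 0.115, edgeR adjusted p = 2.38e-07).

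**Figure D3:**
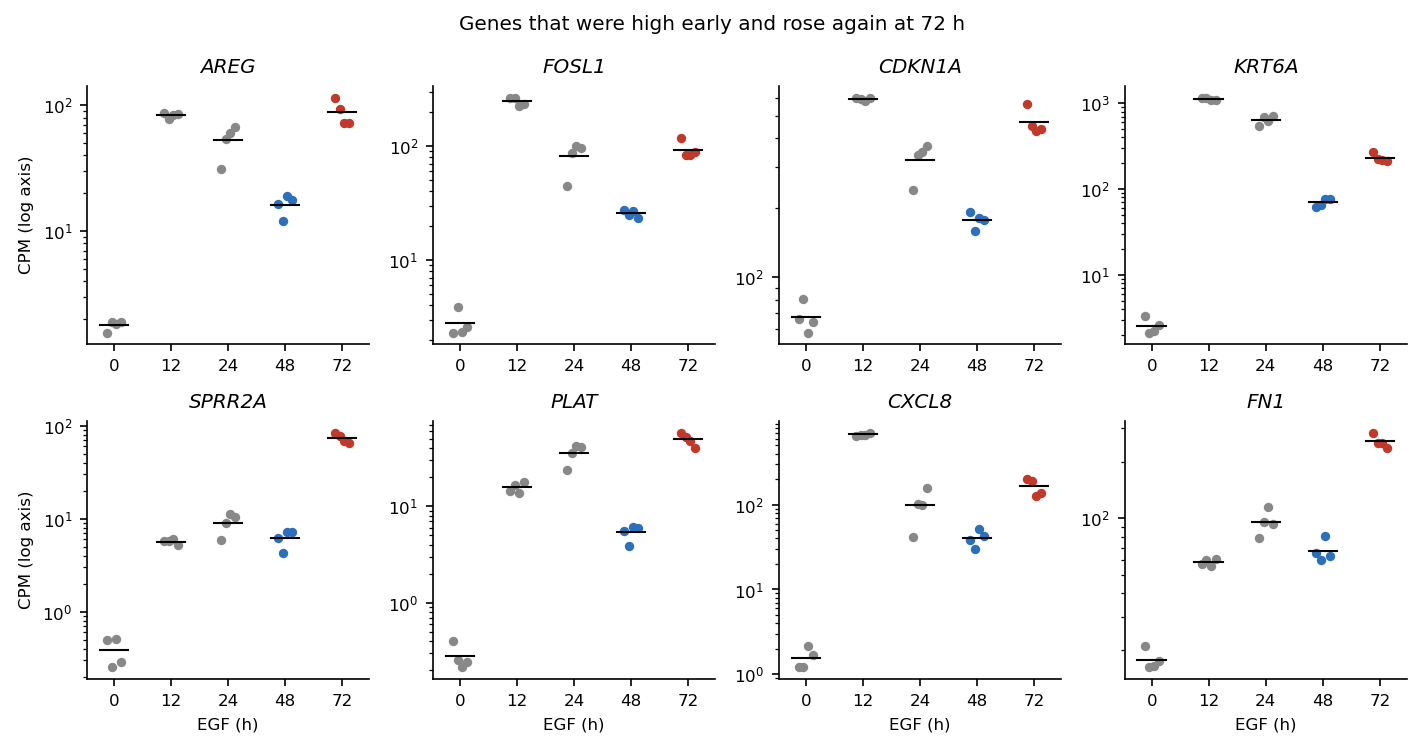
Levels in CPM of 8 genes in each library (points) with the group mean (line), on log axes, against hours of EGF-treatment, with 48 h in blue and 72 h in red. In all 8 genes the 72 h points lie above all 48 h points; in AREG, FOSL1, CDKN1A, KRT6A, PLAT and CXCL8 the 48 h mean is below both early means, and AREG, SPRR2A, PLAT and FN1 reach their highest mean at 72 h.

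Keratins are the filament proteins of epithelial cells. Of 18 measured, 15 were called higher (83.3%) and none lower, with a median of 0.72, and 12 were in the class high early. KRT6A (chromosome 12, 52487174 to 52493257, minus strand), a keratin of stressed and wounded epidermis, had 61.7, 65.4, 76.9 and 77 CPM at 48 h and 269, 225, 219 and 214 CPM at 72 h (log2 fold change 1.72, SE 0.0987, edgeR adjusted p = 6.34e-12). KRT17, its partner in wounded skin, had 90.8, 91.9, 86.8 and 82.6 CPM at 48 h and 322, 247, 317 and 272 CPM at 72 h (log2 fold change 1.72, SE 0.0973, edgeR adjusted p = 5.6e-12). Both stayed well under their 12 h means of 1118 and 1252 CPM, and KRT17 at 48 h was slightly below its control mean of 98.1 CPM. KRT6B and KRT81 rose by 1.59 and 1.36 on the log2 scale (SE 0.0746 and 0.0897, edgeR adjusted p = 2.24e-13 and 5.86e-11). KRT6A and KRT6B are near-identical in sequence, so how reads were divided between them is uncertain. The simple epithelial keratins KRT18 and KRT8, which form the filaments of glandular cells, rose less, by 0.79 and 0.64 (SE 0.0822 and 0.113, edgeR adjusted p = 8.07e-08 and 0.000104).

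The cornified envelope is the protein shell of squamous cells. Of 22 genes of the envelope and of squamous differentiation measured, 16 were called higher (72.7%) and none lower, or 1 lower without EGF 48 h replicate 3, with a median log2 fold change of 1.00, and 13 of them were high early. SPRR2A (chromosome 1, 153056113 to 153057537, minus strand), a small proline-rich protein that is cross-linked into the envelope, had 6.15, 4.25, 7.26 and 7.16 CPM at 48 h and 84.6, 76.7, 69.3 and 65.7 CPM at 72 h (log2 fold change 3.57, SE 0.159, edgeR adjusted p = 1.38e-13). Its 72 h mean exceeded the 12 h and 24 h means of 5.67 and 9.11 CPM several-fold. SPRR3, of the same family, had 50.6, 45.6, 52.7 and 45.6 CPM at 48 h and 286, 258, 242 and 275 CPM at 72 h (log2 fold change 2.45, SE 0.104, edgeR adjusted p = 6.8e-14), and here too the 72 h libraries stood above every other group. The nearby PRR9 is another proline-rich gene of this cluster on chromosome 1. It showed the largest rise among called genes of at least 5 CPM without overlap between groups and without clone names. It had 3.1, 2.4, 3.08 and 2.49 CPM at 48 h and 56.5, 51.2, 41.8 and 46.5 CPM at 72 h (log2 fold change 4.14, SE 0.191, edgeR adjusted p = 2.21e-13). SPRR2A belongs to a set of close copies, so its reads may be shared with SPRR2D, which rose by 3.20 (SE 0.109, edgeR adjusted p = 1.06e-15). SERPINB2, the squamous plasminogen activator inhibitor 2, behaved otherwise: it had 5.6, 3.86, 6.65 and 6.48 CPM at 48 h and 46.7, 41.4, 30.7 and 32.4 CPM at 72 h (log2 fold change 2.74, SE 0.295, edgeR adjusted p = 1.81e-06), no overlap, but a far higher mean of 179 CPM at 12 h.

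The remaining largest rises were led by secreted and epithelial genes. RNASE7, an antimicrobial ribonuclease of skin, had 4.71, 2.54, 3.61 and 2.67 CPM at 48 h and 43.6, 37, 31.7 and 34 CPM at 72 h (log2 fold change 3.44, SE 0.217, edgeR adjusted p = 5.86e-11), where its mean at 24 h had been 0.831 CPM. OLAH, a thioesterase that releases medium-chain fatty acids from fatty acid synthase, had 1.39, 0.831, 2.13 and 1.45 CPM at 48 h and 20.8, 18.6, 17.8 and 15.7 CPM at 72 h (log2 fold change 3.63, SE 0.219, edgeR adjusted p = 1.54e-11). TCN1, a vitamin B12 binding protein, climbed without a dip through 0.7, 5.29, 14.3 and 81.1 CPM at 12, 24, 48 and 72 h (72 h against 48 h log2 fold change 2.50, SE 0.11, edgeR adjusted p = 9.35e-14). Others with a log2 fold change of 3 or near it were COMETT at 3.55, TMCC3 at 3.10, SMIM34B at 3.06, SH2D1B at 3.02, the trypsin inhibitor SPINK1 at 3.01 and the Shc adaptor SHC4 at 2.86. For the largest rises the naming rule took only called genes of at least 5 CPM without overlap between the groups.

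Of 20 luminal and secretory breast genes, 9 were called higher (45%) and 3 lower (15%), or 5 lower with scaling by library size alone. LCN2, a siderophore-binding lipocalin that was abundant throughout, had 748, 673, 659 and 652 CPM at 48 h and 2061, 1906, 2009.9 and 2054 CPM at 72 h (log2 fold change 1.56, SE 0.0874, edgeR adjusted p = 5.23e-12). Its mean rose at each time from 141 CPM in control. CEACAM6, an adhesion protein of glandular surfaces, rose by 1.28 on the log2 scale (SE 0.0907, edgeR adjusted p = 1.89e-10). Its relative CEACAM5, which is not a member of this list, rose by 2.77 (SE 0.203, edgeR adjusted p = 2.01e-09). ESR1, the oestrogen receptor, fell from a low level of 5.38, 5.77, 5.7 and 6.21 CPM to 2.97, 2.62, 3.35 and 2.87 CPM (log2 fold change -0.96, SE 0.156, edgeR adjusted p = 3.56e-05), which was not called with factors set per gene.

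Of 20 chemokines and cytokines of the IL-6 type, 10 were called higher (50%) and 2 lower (10%). The 2 became 4 with scaling by library size alone and 1 when EGF 48 h replicate 1 or either of EGF 72 h replicates 2 and 3 was left out. Of 20 genes of the interleukin-1 family and NF-kB, 11 were called higher (55%) and 1 lower (5%). CXCL8, the neutrophil chemokine interleukin-8, had 38.7, 30.1, 51.5 and 42.2 CPM at 48 h and 202, 190.3, 128 and 138 CPM at 72 h (log2 fold change 2.02, SE 0.292, edgeR adjusted p = 5.3e-05), which left it below its 12 h mean of 675 CPM. CSF2, the growth factor GM-CSF, had 0.72, 0.391, 0.494 and 0.272 CPM at 48 h and 7.09, 7.4, 5.19 and 5.88 CPM at 72 h (log2 fold change 3.77, SE 0.301, edgeR adjusted p = 4.51e-09). Its 72 h mean was above the 0.817 CPM at 12 h. LIF, a cytokine of the IL-6 family, had 9.75, 5.48, 6.88 and 5.85 CPM at 48 h and 42.9, 32.8, 21.1 and 32.4 CPM at 72 h (log2 fold change 2.22, SE 0.325, edgeR adjusted p = 5.38e-05). No 72 h library of any of these 3 overlapped with a 48 h library, although the libraries of LIF at 72 h were themselves wide apart.

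Both the decoy receptor IL1R2 and the antagonist IL1RN of interleukin-1 rose, by 2.46 and 1.32 on the log2 scale (SE 0.195 and 0.0756, edgeR adjusted p = 4.31e-09 and 6.34e-12), while the signalling receptor IL1R1 fell by 0.46 on the log2 scale (SE 0.0921, edgeR adjusted p = 0.000415). The fall of IL1R1 was not called with factors set per gene. IL1RL1, the receptor of interleukin-33, had 6.76, 4.3, 10.6 and 9.52 CPM at 48 h and 60.2, 60.2, 46.8 and 46.7 CPM at 72 h (log2 fold change 2.76, SE 0.182, edgeR adjusted p = 3.14e-10). TNFAIP3, which restrains NF-kB signalling, had 26.7, 18, 28.1 and 21.6 CPM at 48 h and 65.1, 58.1, 47.6 and 53.3 CPM at 72 h (log2 fold change 1.25, SE 0.135, edgeR adjusted p = 1.67e-07). Its 72 h mean was above those at 12 h and 24 h.

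The promoter of CXCL8 is shown because it carries the letters of an AP-1 site, TGANTCA, which FOSL1 and FOSB are known to bind. The capitals mark that match within the 150 bases before the RefSeq start (GRCh38.p14, chr4:73740419-73740568, plus strand), 5′ to 3′.
CXCL8: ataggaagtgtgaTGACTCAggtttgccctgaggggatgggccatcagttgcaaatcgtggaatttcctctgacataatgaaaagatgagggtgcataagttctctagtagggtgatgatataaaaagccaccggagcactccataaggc
In the 250 bases before the start, TGANTCA on either strand was found in 40.7% of 27 squamous gene promoters. It was in 40% of 15 promoters of the plasminogen and metalloproteinase list and in 11.8% of 17 chemokine promoters. The share was 4.33% in 11369 promoters of genes tested here. Not all lists with many risers had a high share. It was 16.7% of 12 EGF receptor and ligand promoters, 7.14% of 28 integrin and laminin promoters and 5.88% of 17 feedback promoters. Of 19 immediate early and 4 keratin promoters, 0 held the motif. The letters of the NF-kB core, GGGNNNTCC, were more frequent in the chemokine list, in 58.8% of the 17 promoters against 22.4% of promoters of genes tested. They were in only 15% of 20 promoters of the interleukin-1 and NF-kB list. A high share was not particular to chemokines, with 56.2% of 16 Notch, 50% of 8 ETS and 45% of 20 mesenchymal transition promoters. A match in this window is a description and not a binding site.

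Of 20 genes of the plasminogen system, metalloproteinases and their inhibitors, 12 were called higher (60%) and 1 lower (5%), with a median of 0.66. PLAT, the tissue plasminogen activator, had 5.6, 3.91, 6.08 and 5.98 CPM at 48 h and 58.3, 51.9, 47.6 and 40.3 CPM at 72 h (log2 fold change 3.19, SE 0.168, edgeR adjusted p = 2.98e-12). Its mean at 72 h was above the 35.9 CPM at 24 h. MMP1, the interstitial collagenase, was nearly absent at 48 h with 1 to 4 counts per library and had 2.81, 2.56, 1.79 and 1.72 CPM at 72 h (edgeR adjusted p = 4.43e-08), so no fold change is given. The 1 gene called lower, TFPI, an inhibitor of tissue factor, had a log2 fold change of -0.23 (SE 0.0894, edgeR adjusted p = 0.045), which turned to 0.06 with factors set per gene. The call of TFPI was also lost without EGF 48 h replicate 3 or 4 and without any 1 of the 72 h libraries.

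Of 32 genes of integrins, laminins and focal adhesion, which tie cells to the matrix, 16 were called higher (50%) and none lower. ITGA2, the collagen-binding integrin subunit, had 83.1, 65.5, 97.9 and 78.9 CPM at 48 h and 285, 262, 218 and 218 CPM at 72 h (log2 fold change 1.59, SE 0.165, edgeR adjusted p = 3.73e-07). ITGB4, which anchors epithelial cells to laminin, had 48.2, 49.4, 42.4 and 39.8 CPM at 48 h and 145, 107, 114 and 118 CPM at 72 h (log2 fold change 1.43, SE 0.133, edgeR adjusted p = 2.31e-08). LAMA3, a chain of that laminin, rose by 1.46 (SE 0.107, edgeR adjusted p = 2.8e-10). ITGB4 and LAMA3 reached their highest means at 72 h, whereas ITGA2 had been higher at 12 h (508 CPM). Of 23 regulators and markers of epithelial to mesenchymal transition, 10 were called higher (43.5%) and 2 lower (8.7%). FN1, fibronectin, had 65.6, 59.8, 80.3 and 63 CPM at 48 h and 285, 249, 252 and 237 CPM at 72 h (log2 fold change 1.93, SE 0.104, edgeR adjusted p = 2.98e-12). TNC, tenascin C, had 5.65, 5.48, 6.19 and 5.8 CPM at 48 h and 21.9, 17.9, 18.6 and 18.1 CPM at 72 h (log2 fold change 1.73, SE 0.143, edgeR adjusted p = 2.01e-09). Both are matrix proteins, and neither overlapped between the groups. The lysyl oxidase LOX rose by 1.60 (SE 0.135, edgeR adjusted p = 2.64e-09). The members called lower were LOXL2, of the same enzyme family, at -0.72 and the transcription factor SNAI1 at -0.64 (SE 0.109 and 0.195, edgeR adjusted p = 1.4e-05 and 0.0135). Of 30 epithelial junction genes, 8 were called higher (26.7%) and 4 lower (13.3%), or 8 lower with scaling by library size alone. The desmosomal cadherin DSG3 rose by 1.62 (SE 0.197, edgeR adjusted p = 1.77e-06) and the epithelial transcription factor GRHL2 fell by 0.55 (SE 0.0987, edgeR adjusted p = 0.000128), the latter not called with factors set per gene.

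Some programmes had early list medians near or below control, although some of their members were high early. Of 39 measured interferon-stimulated genes, 24 were called higher (61.5%) and 2 lower (5.13%), and the list median against control was -0.12, -0.32, 0.18 and 0.53 at 12, 24, 48 and 72 h. At 12 h, 12 members were called above control and 10 below, and at 24 h these were 7 and 19. Of the 18 members that rose more than 1.5-fold from 48 h to 72 h, 6 had been within the limits at both early times. A further 7 had been below control and 5 had been above it. These genes encode antiviral proteins that interferons induce. OAS2 (chromosome 12, 112978395 to 113011723, plus strand), a sensor of double-stranded RNA, had 8.98, 12.2, 10.3 and 11.6 CPM at 48 h and 27.2, 23.5, 25 and 21.5 CPM at 72 h (log2 fold change 1.18, SE 0.131, edgeR adjusted p = 2.13e-07). Its control, 12 h and 24 h means were 11.2, 10.1 and 11.2 CPM, so the 72 h group was the only one that stood apart. BST2 (chromosome 19, 17402939 to 17405648, minus strand), which tethers budding virions, had 2.88, 3.03, 2.62 and 2.4 CPM at 48 h and 7.05, 4.49, 5.81 and 5.94 CPM at 72 h (log2 fold change 1.10, SE 0.165, edgeR adjusted p = 1.32e-05), after a mean of 1.23 CPM at 24 h that was below the 4.01 CPM of control. OASL and IFI6 rose by 1.19 and 1.17 (SE 0.184 and 0.261, edgeR adjusted p = 1.85e-05 and 0.00107), at low levels, and in IFI6 only 3 of 4 libraries at 72 h exceeded all 48 h libraries. With factors set per gene, 12 of the 29 members that could be tested were called higher, where 18 of the same 29 were without them. Against the rest of the list, MX2 and IFITM2 fell, MX2 from 2.38, 3.13, 2.28 and 2.76 CPM to 1.19, 0.967, 0.782 and 1.66 CPM (log2 fold change -1.20 and -1.02, SE 0.258 and 0.258, edgeR adjusted p = 0.000785 and 0.00319).

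The promoters of BST2 and IFI6 are shown because they carry the letters of the interferon-stimulated response element, which is GAAA, any 2 bases and GAAA again, in capitals. They are the 150 bases before the RefSeq start in GRCh38.p14, 5′ to 3′, at chr19:17405631-17405780, minus strand, and chr1:27672193-27672342, minus strand.
BST2: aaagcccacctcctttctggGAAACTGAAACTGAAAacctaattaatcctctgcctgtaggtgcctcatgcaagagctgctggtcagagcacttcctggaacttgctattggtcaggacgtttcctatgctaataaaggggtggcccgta
IFI6: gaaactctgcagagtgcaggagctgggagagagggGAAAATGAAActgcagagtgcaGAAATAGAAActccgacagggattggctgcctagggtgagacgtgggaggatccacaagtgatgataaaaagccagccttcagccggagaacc
On either strand of the 250 bases before the start, the motif was present in 58.1% of 31 interferon-stimulated gene promoters and 53.8% of 13 promoters of MHC class I and antigen processing genes, against 2.33% of the promoters of genes tested. In BST2 2 matches overlap.

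Of 16 measured genes of MHC class I and antigen processing, 12 were called higher (75%) and none lower, with a median log2 fold change of 0.48. With scaling by library size alone, 1 was called lower, and likewise when either EGF 48 h replicate 3 or EGF 72 h replicate 3 was left out. The list median against control was 0.17, 0.01, 0.30 and 0.76 at 12, 24, 48 and 72 h. At 12 h, 7 members were called above control and 2 below, and at 24 h these were 5 and 5. HLA-B, a heavy chain that presents peptides to T cells, had 137, 129, 120.2 and 122 CPM at 48 h and 256, 241, 259 and 263 CPM at 72 h (log2 fold change 1.00, SE 0.0878, edgeR adjusted p = 4.72e-09). HLA-C and HLA-F rose by 0.66 and 0.94 (SE 0.0857 and 0.113, edgeR adjusted p = 1.93e-06 and 6.21e-07). None of these 3 was called above 1.5-fold at 12 h or 24 h, and in each the groups at 48 h and 72 h did not overlap. HLA genes are close copies of each other, and HLA-B and HLA-C overlap in GENCODE 29, so the division of reads between them is uncertain. CD274, the checkpoint ligand PD-L1, belonged to the early genes instead, with 1.61, 1.32, 3.42 and 3.17 CPM at 48 h and 12.6, 14.1, 12 and 10.6 CPM at 72 h (log2 fold change 2.34, SE 0.213, edgeR adjusted p = 1.08e-08) and a 12 h mean of 14.7 CPM.

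Among the other late starters, SERPING1, the C1 inhibitor of complement, had 8.31, 9.54, 6.8 and 8.16 CPM at 48 h and 27.6, 25.1, 25.9 and 22.6 CPM at 72 h (log2 fold change 1.63, SE 0.109, edgeR adjusted p = 7.51e-11), where the control, 12 h and 24 h means were 6.88, 6.51 and 6.62 CPM. KDELR3, which returns escaped chaperones to the endoplasmic reticulum, had 34.2, 34.3, 35.7 and 35.8 CPM at 48 h and 80, 71.5, 69.1 and 69.5 CPM at 72 h (log2 fold change 1.05, SE 0.0655, edgeR adjusted p = 2.7e-11). HSD17B2, which inactivates oestradiol, had 13.5, 13.5, 15.7 and 13.6 CPM at 48 h and 34.6, 34.2, 30.9 and 33.1 CPM at 72 h (log2 fold change 1.24, SE 0.126, edgeR adjusted p = 5.4e-08). For HSD17B2 the 48 h libraries were the low group, since control, 12 h and 24 h means were 24.3, 28.3 and 28.7 CPM. S100A7A, GABRP and PSG9 completed the class by the naming rule, with log2 fold changes of 1.13, 1.11 and 1.14 (SE 0.132, 0.154 and 0.16, edgeR adjusted p = 5.19e-07, 5e-06 and 5.8e-06).

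**Figure D4:**
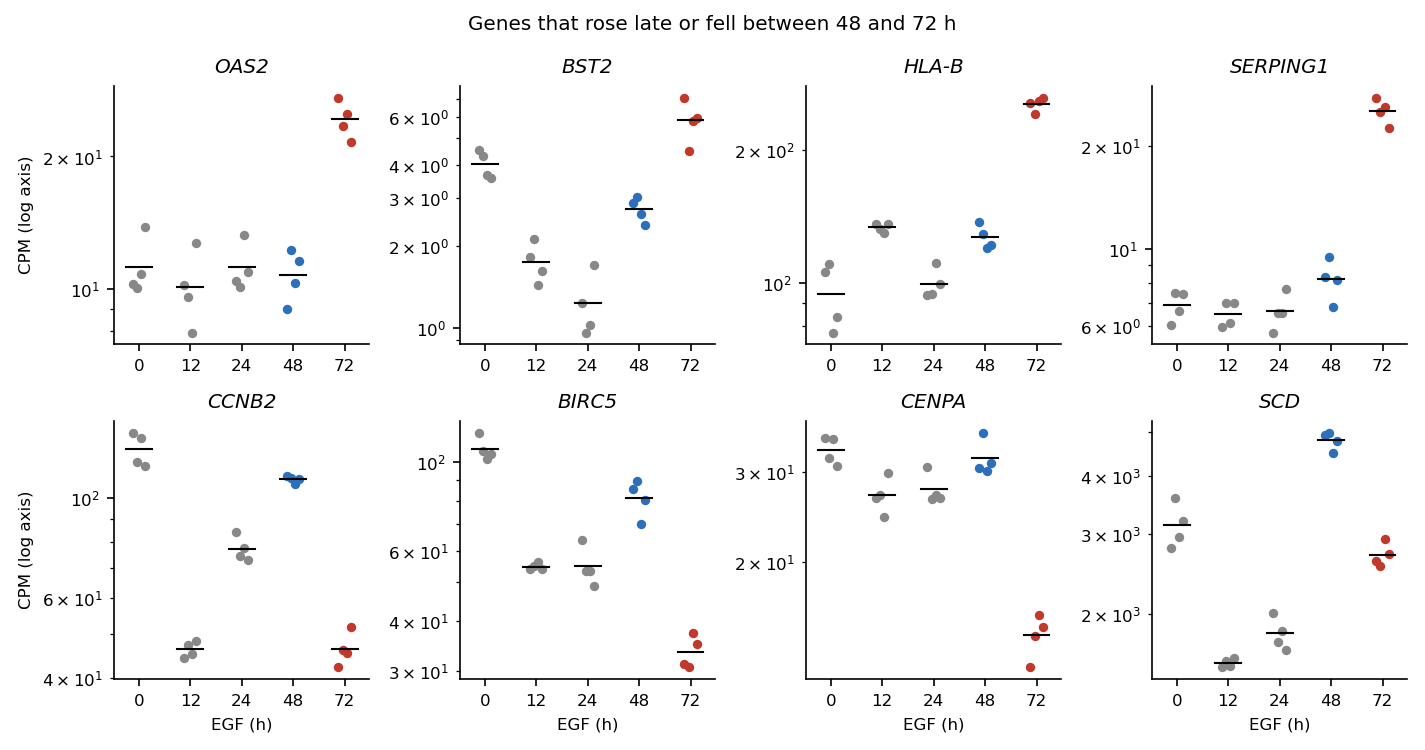
Levels in CPM of 8 genes in each library (points) with the group mean (line), on log axes, against hours of EGF-treatment, with 48 h in blue and 72 h in red. In OAS2, HLA-B and SERPING1 the 72 h points are above all others, in BST2 1 of them lies within the control points; CCNB2, BIRC5, CENPA and SCD fall from 48 h to 72 h, and BIRC5 and CENPA reach their lowest mean at 72 h.

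The unfolded protein response raises the folding capacity of the endoplasmic reticulum. Of 23 measured chaperones and other genes of this response, 16 were called higher (69.6%) and none lower. This list had been high early: its median against control was 0.505, 0.018, -0.131 and 0.319 at 12, 24, 48 and 72 h. At 12 h, 16 members were called above control. Of the 5 that rose more than 1.5-fold from 48 h to 72 h, 4 had been high early and 1 started late. HSPA5, the chaperone BiP, had 319.5, 320.1, 377 and 343 CPM at 48 h and 840.2, 815, 785 and 736 CPM at 72 h (log2 fold change 1.22, SE 0.0653, edgeR adjusted p = 2.87e-12). HERPUD1, which acts in the disposal of misfolded proteins, had 123, 105, 121 and 113 CPM at 48 h and 237, 233, 240.1 and 226 CPM at 72 h (log2 fold change 1.02, SE 0.0624, edgeR adjusted p = 2.11e-11). Both reached their highest mean at 72 h and neither overlapped. With scaling by library size alone, 3 members were called lower, and 1 was without EGF 48 h replicate 2. The HSPA5 promoter is shown because the CCAAT letters, in capitals, are part of the known stress element, which was not searched as a whole. CCAAT was present in 86.4% of 22 promoters of this list against 35.1% of promoters of genes tested (either strand of 250 bases). Lists that fell had similar shares, 84.2% of 19 cholesterol promoters and 83.3% of 24 mitotic promoters. For HSPA5, the 150 bases before the RefSeq start are at chr9:125241344-125241493, minus strand in GRCh38.p14.
HSPA5: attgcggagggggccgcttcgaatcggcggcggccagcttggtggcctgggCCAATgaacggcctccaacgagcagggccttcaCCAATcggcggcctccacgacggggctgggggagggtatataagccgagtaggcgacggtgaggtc
Among 31 targets of ATF4, the factor of the amino acid response, 9 were called higher (29%) and 3 lower (9.68%). The 3 became 8 with scaling by library size alone, 5 with upper quartile factors and 5 without EGF 48 h replicate 2. GDF15, a stress-induced cytokine, had 1.83, 1.42, 1.86 and 1.72 CPM at 48 h and 13.8, 9.39, 11.8 and 10.5 CPM at 72 h (log2 fold change 2.73, SE 0.172, edgeR adjusted p = 3.08e-11), where the 24 h mean had been 0.463 CPM. WARS1, a tRNA synthetase, rose by 1.04 (SE 0.102, edgeR adjusted p = 2.82e-08), and the serine synthesis enzymes PHGDH and PSPH fell by 0.38 and 0.29 (SE 0.0838 and 0.0599, edgeR adjusted p = 0.00107 and 0.000608).

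All 30 measured genes of G2/M and mitosis were called lower, where 17.9% of all genes were, and in all 30 the 4 libraries at 72 h lay below the 4 at 48 h. Their log2 fold changes ran from -1.28 to -0.52 with a median of -0.99, and the list median against control was -0.72, -0.38, -0.27 and -1.20 at 12, 24, 48 and 72 h. In bulk RNA, fewer cells in mitosis and less mitotic RNA per cell cannot be told apart. Of the 29 that fell more than 1.5-fold, 19 had been low early and 10 had been within the fold limits at both early times. Smaller early falls were common, since 27 of the 30 were called below control at 12 h and 24 at 24 h. CCNB2 (chromosome 15, 59105078 to 59125045, plus strand), a B-type cyclin that drives entry into mitosis, had 112, 111, 107 and 110.0 CPM at 48 h and 42.2, 46.2, 45.5 and 51.7 CPM at 72 h (log2 fold change -1.25, SE 0.0716, edgeR adjusted p = 6.42e-12). The 72 h mean of 46.4 CPM was almost that of 12 h, 46.3 CPM, with 128 CPM in control. BIRC5 (chromosome 17, 78214186 to 78225636, plus strand), survivin, a part of the chromosomal passenger complex, had 85.3, 89.3, 69.9 and 80.1 CPM at 48 h and 31.3, 30.7, 37.3 and 35.1 CPM at 72 h (log2 fold change -1.27, SE 0.0879, edgeR adjusted p = 1.22e-10). KIF20A, a kinesin of cytokinesis, had 105, 113, 95.5 and 102 CPM at 48 h and 38.6, 44.1, 45.5 and 47.7 CPM at 72 h (log2 fold change -1.24, SE 0.0844, edgeR adjusted p = 1.01e-10). CENPA, the histone variant of centromeres, had 30.5, 35.8, 30.1 and 31.2 CPM at 48 h and 12.4, 14.3, 15.7 and 14.9 CPM at 72 h (log2 fold change -1.16, SE 0.0875, edgeR adjusted p = 4.95e-10). Its early means of 27 and 27.7 CPM lay near the 33.1 CPM of control. Outside the list, SPC24 and SKA1 of the kinetochore fell by 1.58 and 1.29 on the log2 scale. CKAP2L, SGO1, POLQ and ESPL1 had been within the fold limits at both early times and fell by 1.10, 1.06, 1.06 and 1.05. All but the DNA polymerase POLQ act in mitosis. ESPL1 was not called with factors set per gene.

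Mitotic promoters are known for CCAAT boxes followed by a cell cycle homology region, here searched as CCAAT and as TTTGAA or TTTAAA on either strand. The 150 bases before the RefSeq start (GRCh38.p14) of 4 of these genes are shown with both motifs in capitals, at chr15:59104996-59105145, plus strand, chr5:138178962-138179111, plus strand, chr2:26785906-26786055, plus strand and chr2:112764610-112764759, minus strand, each written 5′ to 3′ along the gene.
CCNB2: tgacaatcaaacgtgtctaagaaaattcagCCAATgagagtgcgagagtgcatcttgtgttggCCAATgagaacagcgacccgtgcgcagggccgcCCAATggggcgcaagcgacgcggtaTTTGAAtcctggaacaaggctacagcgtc
KIF20A: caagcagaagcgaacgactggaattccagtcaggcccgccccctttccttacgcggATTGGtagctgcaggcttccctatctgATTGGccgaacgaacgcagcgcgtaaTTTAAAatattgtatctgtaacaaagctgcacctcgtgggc
CENPA: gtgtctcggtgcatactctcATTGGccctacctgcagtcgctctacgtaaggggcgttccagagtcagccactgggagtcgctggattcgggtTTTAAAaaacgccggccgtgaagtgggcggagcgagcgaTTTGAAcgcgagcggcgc
CKAP2L: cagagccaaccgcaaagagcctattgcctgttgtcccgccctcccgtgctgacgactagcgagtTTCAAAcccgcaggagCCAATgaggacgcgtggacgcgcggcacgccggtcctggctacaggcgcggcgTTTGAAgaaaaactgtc
Of 24 mitotic promoters in the table, 75% held TTTGAA or TTTAAA in the 250 bases before the start and 83.3% held CCAAT, against 14.9% and 35.1% of the promoters of genes tested. These are matches of letters, and no binding was measured.

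Of 36 measured genes of DNA replication, 7 were called higher (19.4%) and 11 lower (30.6%) with a median of -0.05, and the 11 became 6 or 7 when either EGF 72 h replicate 1, 2 or 3 or EGF 48 h replicate 4 was left out. CCNE2, the cyclin of S phase entry, rose by 0.83 (SE 0.125, edgeR adjusted p = 1.56e-05), while MCM10, a replication initiation factor, fell by 0.54 (SE 0.0926, edgeR adjusted p = 7.1e-05). In G1, 6 of 12 cyclins, kinases and inhibitors were called higher (50%) and 1 lower (8.33%). CDKN1A, the inhibitor p21, had 193, 158, 181 and 178 CPM at 48 h and 562, 452, 431 and 439 CPM at 72 h (log2 fold change 1.41, SE 0.114, edgeR adjusted p = 1.98e-09), between its 12 h and 24 h means of 593 and 324 CPM. The G1 genes CDK6, CCNE1 and CCND1, which push the cell forward to S phase, rose at the same time by 0.94, 0.93 and 0.81 (SE 0.102, 0.0903 and 0.0831, edgeR adjusted p = 1.37e-07, 2.58e-08 and 5.88e-08). CDKN2C, the inhibitor p18, fell by 0.75 (SE 0.114, edgeR adjusted p = 1.59e-05). Of 21 p53 targets, 5 were called higher (23.8%) and 6 lower (28.6%).

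Of 24 genes of cholesterol synthesis and uptake, 14 were called lower (58.3%) and none higher, or 1 higher without EGF 48 h replicate 3, with a median of -0.32. TM7SF2, a sterol reductase, had 28.6, 33.2, 19.1 and 21.4 CPM at 48 h and 12.4, 11.1, 11.3 and 13.2 CPM at 72 h (log2 fold change -1.09, SE 0.175, edgeR adjusted p = 4.21e-05). The remaining falls were smaller, and the enzymes LSS and DHCR7 fell by 0.58 and 0.49 (SE 0.1 and 0.0756, edgeR adjusted p = 8.21e-05 and 1.83e-05). Of 20 genes of fatty acid synthesis, 9 were called lower (45%) and 5 higher (25%). SCD (chromosome 10, 100347124 to 100364834, plus strand), the desaturase that makes oleate and a very abundant transcript here, had 4932, 4983, 4493 and 4778 CPM at 48 h and 2607, 2547, 2912 and 2712 CPM at 72 h (log2 fold change -0.83, SE 0.0705, edgeR adjusted p = 2.9e-09). SREBF1, the transcription factor of the fatty acid genes, had 38.3, 34.4, 25.5 and 27.1 CPM at 48 h and 18.3, 14.9, 15.5 and 19.2 CPM at 72 h (log2 fold change -0.88, SE 0.164, edgeR adjusted p = 0.000225). Both had means below control at 12 h and 24 h, were higher again at 48 h and lower again at 72 h. The elongases ELOVL4 and ELOVL6 rose by 0.97 and 0.77 (SE 0.146 and 0.115, edgeR adjusted p = 1.84e-05 and 1.27e-05), ELOVL6 not with factors set per gene.

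Glycerophospholipid synthesis makes the main lipids of membranes, phosphatidylcholine and phosphatidylethanolamine. Of 58 measured genes, 18 were called higher (31%) and 6 lower (10.3%), or 11 and 11 with scaling by library size alone. With factors set per gene, 10 of the 53 members that could be tested were called higher and 3 lower, where 16 and 6 of the same 53 were without them. GPAT3, which acylates glycerol-3-phosphate in the first step, had 4.82, 4.55, 7.07 and 6.3 CPM at 48 h and 21, 22.5, 18.5 and 16.9 CPM at 72 h (log2 fold change 1.78, SE 0.149, edgeR adjusted p = 2.29e-09). LPCAT1, an acyltransferase that remakes phosphatidylcholine with saturated chains, had 19.2, 18.7, 18 and 17.9 CPM at 48 h and 34.9, 36.9, 30.9 and 33.7 CPM at 72 h (log2 fold change 0.89, SE 0.0756, edgeR adjusted p = 3.09e-09). LPCAT3, which inserts polyunsaturated chains, moved the other way with 71.4, 74.3, 62.6 and 71.5 CPM at 48 h and 40.9, 40.6, 49 and 45.6 CPM at 72 h (log2 fold change -0.67, SE 0.0798, edgeR adjusted p = 5.91e-07). AGPAT5 and LPCAT4, both acyltransferases, rose by 0.79 and 0.78 (SE 0.113 and 0.142, edgeR adjusted p = 6.72e-06 and 0.000153).

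All 12 of the largest falls by the naming rule were of genes that had been below control early. METTL7A, a lipid droplet methyltransferase, had 13.2, 13.4, 10.9 and 12.8 CPM at 48 h and 2.58, 3.87, 3.57 and 3.26 CPM at 72 h (log2 fold change -1.94, SE 0.233, edgeR adjusted p = 1.08e-06), SELENOP, the selenium carrier, had 14, 15.7, 15.2 and 18.4 CPM at 48 h and 4.05, 5.18, 5.7 and 4.28 CPM at 72 h (log2 fold change -1.73, SE 0.175, edgeR adjusted p = 6.51e-08), and the aldehyde dehydrogenase ALDH3B2 had 321, 370.3, 253 and 285 CPM at 48 h and 112, 103, 130.4 and 129 CPM at 72 h (log2 fold change -1.38, SE 0.173, edgeR adjusted p = 5.32e-06). In METTL7A and ALDH3B2 the 48 h mean had partly regained the control level, with 12.6 against 23.7 CPM and 308 against 594 CPM, before the fall. CRISP3 and MUCL1, secreted proteins of glandular epithelium, showed no recovery: CRISP3 had means of 331, 116, 23.5, 16.2 and 5.93 CPM from control to 72 h (72 h against 48 h log2 fold change -1.47, SE 0.106, edgeR adjusted p = 2.45e-10), and MUCL1 fell by 1.33 on the log2 scale (SE 0.118, edgeR adjusted p = 5.74e-09). The other largest falls were ATP6V1B1 by 1.76, ELAPOR1 by 1.72, OBP2B by 1.64, CPAMD8 by 1.64, TRIL by 1.62, PTGIS by 1.41 and LNP1 by 1.39 on the log2 scale.

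Of 78 cytosolic ribosomal protein genes, 45 were called lower (57.7%) and none higher with a median of -0.20, and RPL6 had 697, 705, 663 and 694 CPM at 48 h and 495, 506, 531 and 527 CPM at 72 h (log2 fold change -0.42, SE 0.0526, edgeR adjusted p = 1.08e-06). No member of this list was called lower by a test against a 1.5-fold change. Of 30 nuclear genes of the respiratory chain, 14 were called lower (46.7%) and 1 higher (3.33%), with NDUFV2 of complex I falling by 0.40 (SE 0.0576, edgeR adjusted p = 8.01e-06) and SDHA of complex II rising by 0.31 (SE 0.0833, edgeR adjusted p = 0.00576). Of 13 mitochondrially encoded genes, 1 (7.69%), MT-ND2, was called higher. The count was 9 without EGF 48 h replicate 2, the library with the highest mitochondrial share, 1 without EGF 72 h replicate 3 and 0 without any other 1 of the 8 libraries. It was also 0 with upper quartile factors, with no filter beyond 1 count and with the 8 libraries alone. Of 22 NRF2 targets and iron genes, 8 were called lower (36.4%) and 4 higher (18.2%). AKR1B10, a reductase, had 30.3, 32.5, 28.6 and 33 CPM at 48 h and 13.3, 12.2, 15.2 and 13.7 CPM at 72 h (log2 fold change -1.19, SE 0.0953, edgeR adjusted p = 1.18e-09) and the ferritin light chain FTL rose by 0.67 (SE 0.103, edgeR adjusted p = 1.8e-05). Among 31 glycolysis and hypoxia genes, 11 were called higher (35.5%) and 3 lower (9.68%), led by ENO2 and the hexokinase HK2 at 1.43 and 1.18 (SE 0.147 and 0.0736, edgeR adjusted p = 6.65e-08 and 2.65e-11).

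Of 20 measured circadian clock genes, 7 were called lower (35%) and 6 higher (30%). DBP and TEF, output factors of the clock that share a binding site, fell by 0.92 and 1.07, PER2, a repressor of the clock, by 0.71, and ARNTL2, a partner of CLOCK, rose by 0.94 on the log2 scale (SE 0.153, 0.156, 0.137 and 0.119, edgeR adjusted p = 5.04e-05, 9.29e-06, 0.000261 and 1.45e-06). TEF was not called with factors set per gene. Of 32 TGF-beta, BMP and ID genes, 7 were called higher (21.9%) and 4 lower (12.5%). The 4 became 8 with scaling by library size alone. Leaving out EGF 48 h replicate 4 gave 1 lower, EGF 48 h replicate 3 gave 2 and EGF 72 h replicate 2 gave 2. Leaving out EGF 72 h replicate 1 gave 4 higher and 1 lower. Of 30 lysosomal genes, 6 were called higher (20%) and 3 lower (10%). With scaling by library size alone these were 3 and 8, and the 6 became 3 when either EGF 48 h replicate 4 or EGF 72 h replicate 1 was left out. The 3 lower became 1 when EGF 48 h replicate 2 was. Of 17 cytosolic heat shock proteins, 4 were called higher (23.5%), or 2 without EGF 48 h replicate 2, and 3 lower (17.6%). Of 12 E2F and pocket proteins, 3 were called higher (25%), or 1 with scaling by library size alone and 5 with DESeq2, and 3 lower (25%). BCL2 family and caspase genes had 7 of 22 called higher (31.8%) and 3 lower (13.6%), or 6 lower with scaling by library size alone. The Notch pathway had 6 of 15 called higher (40%) and 3 lower (20%), and the 6 became 2 with scaling by library size alone and 3 without EGF 48 h replicate 4. Ribosome biogenesis genes had 9 of 32 called higher (28.1%) and 1 lower (3.12%), and metallothioneins 2 of 5 higher (40%) and none lower. None of the 4 measured markers of other cell types was called.

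**Figure D5:**
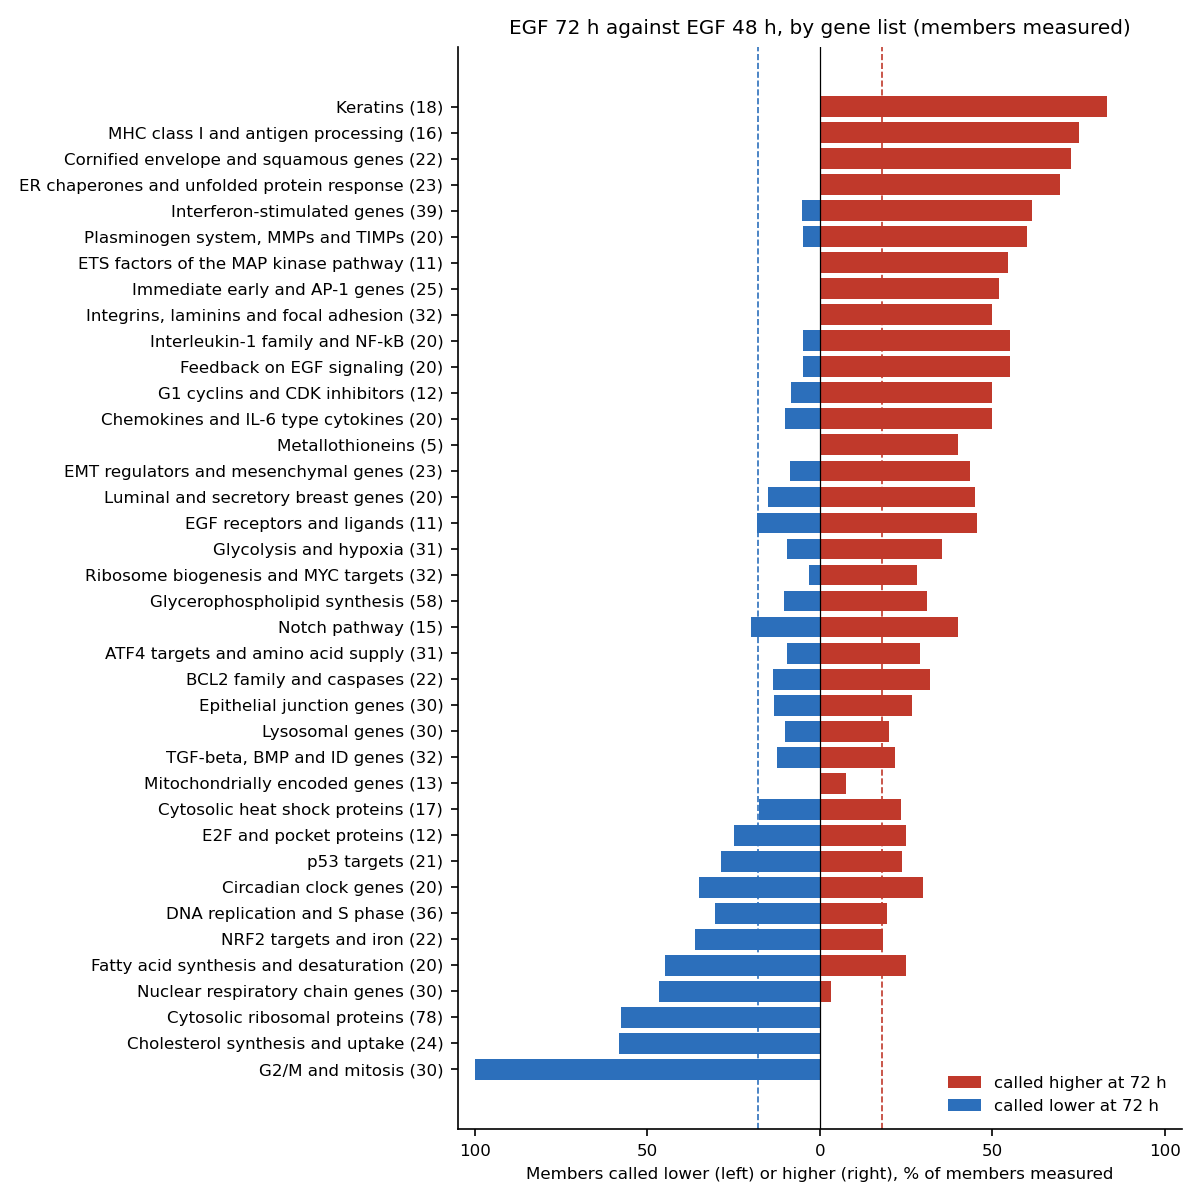
For each gene list, with the number of members measured in brackets, the share of members called higher (red, right) or lower (blue, left) at 72 h against 48 h, in percent. Dashed lines mark the 17.9% of all genes tested called in each direction; G2/M and mitosis reaches 100% lower, and keratins, MHC class I, squamous and ER chaperone lists have no member called lower.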

How the data were processed

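RNA of MDA-MB-468 cells was sequenced by the study with the Lexogen Corall mRNA kit as 75 bp single-end reads in 20 libraries. The authors deposited estimated counts per gene, already rounded to whole numbers, on hg38 by the submitters' processing notes, and their DESeq2 normalized values, which are taken here as a score because each count was divided by a factor per gene and library. The aligner, annotation and use of molecular identifiers are not given in the sources used here. The deposited columns of fold changes and p-values of the authors' own comparisons were not used.

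Counts were tested in edgeR 4.0.16 (R 4.3.3, limma 3.58.1) with TMM factors, a filter on low counts and the quasi-likelihood test over all 20 libraries with 1 mean per group, and adjusted by the Benjamini-Hochberg method over 16522 genes at 0.05. The fold limit was 1.5 in either direction, as in the study. CPM values are counts scaled to a common library size with TMM factors, and log2 fold changes carry edgeR's default prior count. The p-values weigh each change against the spread between biological replicates within the groups, estimated over all 20 libraries. Depth limits genes of few counts most, and intervals from 4 libraries cover no variation between cell stocks. On simulated data for this comparison with 16522 genes, 52 of 67 genes changed 1.5-fold, 66 of 67 changed 2-fold and 66 of 66 changed 4-fold were called, beside 13 of 16322 unchanged genes. How these numbers carry over to the real libraries, where 5906 genes were called, or to genes of few counts was not tested.

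Genes were placed as high or low early by an adjusted p under 0.05 and the same fold limits at 12 h or 24 h against control. Risers that were neither are said to have started and such fallers to have fallen first, also where a smaller early change was called. Genes were named by rule: the 12 largest rises and 12 largest falls among called genes of at least 5 CPM without overlap between groups and without clone names, up to 4 called members of each list in its majority direction and 2 in the other with at least 1 CPM, 6 more risers high early and 6 that started, 4 more fallers low early and 4 that fell first, and EGFR. TGFA was named after its values were seen, and a few genes that met the rule are not reported here. The comparison, the lists and the rule were chosen with earlier results of these data known. Gene positions are from GENCODE 29 on GRCh38 and promoters from RefSeq on GRCh38.p14, and not every member had a promoter in that table. DESeq2 1.42.0, other scalings, filters, a replicate block and leaving out each library were tried as alternatives.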

Additional observations from a re-analysis of the deposited data

Results flagged for a closer look

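Among 468 groups of 4 libraries at 48 h or 72 h checked for the named genes, 14 held a library whose gap to its nearest neighbour exceeded Dixon's 95% limit, and chance alone flags about 1 group in 20. EGF 72 h replicate 1 was the library in 3 of them: SPRR2D had 40.5 CPM there against 34.9 to 35.7 CPM in the others, CDKN1A 562 against 431 to 452 CPM and FOSL1 119 against 82.9 to 88.3 CPM. EGF 72 h replicate 2 stood apart for CCNE2 with 87.4 against 75.5 to 77.0 CPM, for ETV5 with 50.7 against 55.6 to 56.0 CPM and for MT2A with 2560 against 3180 to 3195 CPM. In EGF 72 h replicate 3, FST had 2.85 CPM against 2.50 to 2.55 CPM, and in EGF 72 h replicate 4, PTGIS had 5.56 against 6.54 to 6.67 CPM. At 48 h, replicate 2 stood apart for E2F5 with 8.07 against 11.2 CPM, for NOTCH3 with 206 against 162 to 169 CPM and for PPBP with 1.86 against 4.16 to 4.62 CPM. Replicate 3 at 48 h stood apart for DDIT3 with 12.6 against 11.3 to 11.5 CPM and for HSD17B2 with 15.7 against 13.5 to 13.6 CPM, and replicate 1 for LFNG with 3.93 against 3.26 to 3.34 CPM.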

How the results depend on the processing

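The counts of 2951 genes called higher and 2955 lower stayed within 1.5 times of these values under every alternative except a test against a 1.5-fold change and factors set per gene. With scaling by library size alone they were 2132 and 4175, so that 33.8% of calls were higher where 50% were. By glmTreat, a test against a 1.5-fold change, 578 genes were higher and 305 lower, with 459 risers high early, 18 low early, 101 that started, 256 fallers low early, 1 high early and 48 that fell first. With factors per gene, an alternative chosen after seeing the data and limited to 11956 genes, 1738 were higher and 1471 lower, 681 and 588 of them past the fold limits, with 538 risers high early, 39 low early, 104 that started, 474 fallers low early and 12 high early. Among the same genes, 4605 had been called without these factors. Of these, 2992 were still called with them, and 4543 had the same sign, called or not. With at least 10 counts in every library, 775 rose and 686 fell past the fold limits, with 606, 48 and 121 risers and 585 and 8 fallers in those classes, where fewer genes were tested. With fold limits of 2 and 0.5, 637 rose and 430 fell, with 491, 27 and 119 risers and 355, 8 and 67 fallers. With 24 h alone as the early time, 41 risers had been low, 314 started and 347 fallers fell first. DESeq2 gave 11 fallers high early and no filter beyond 1 count gave 298 risers that started. The cause of these differences was not tested beyond the smaller number of genes named.

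When 1 library was left out, 2564 to 2921 genes were higher and 2348 to 2897 lower, 1185 to 1336 rose and 994 to 1238 fell past the fold limits, 916 to 1008 risers had been high, 79 to 99 low and 183 to 229 started, and 856 to 1058 fallers had been low, 112 to 160 fell first and 11 to 20 had been high, the 11 without EGF 48 h replicate 2 and 13 without EGF 72 h replicate 2. Class counts could not be had from the 8 libraries alone. EGFR turned to -0.021 with library size alone and TFPI to 0.065 with factors per gene. Of 235 named genes, 121 kept their call under every alternative in which they were tested, 113 lost it in at least 1, 109 of them by glmTreat, and EGFR was not called.

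Replicate numbers did not pair the 48 h with the 72 h libraries. Deviations of same-numbered libraries in these groups correlated at -0.239 to 0.0326, and 0 of 4 libraries correlated best with its own number. Between control and 48 h, r was 0.328 for replicate 2 and 0.348 for replicate 3, but 0.00014 for replicate 1 and 0.027 for replicate 4. Differently numbered libraries of these groups also correlated, as control replicate 3 with EGF 48 h replicate 4 at 0.259. With the replicate block 3125 genes were higher and 3050 lower, and 5816 of the 5906 calls were shared.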
